A study of Mus musculus with 14 samples.

Results

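The immunoglobulin chain genes of mouse spleen were followed on arrays that compared cells enriched for follicular dendritic cells (FDC-E) with cells depleted of them (FDC-D). Follicular dendritic cells are a stromal type that displays antigen to B cells inside the follicles of lymphoid tissue. The members are the probe sets annotated to 1 gene whose symbol begins with Igh, Igk or Igl, or is Jchain, leaving out Ighmbp2 and Igll1. There were 67 such probe sets of 36899 on 3 array sets, called A, B and C, and they named 29 of the 15965 genes that have a probe set with a single symbol. Set A held 65 of them, and sets B and C held 1 each. A further 14 probe sets named several such genes, or 1 together with another gene, and were kept apart.

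An antibody is built of heavy and light chains, and each chain joins a variable region, which binds antigen, to a constant region, which for the heavy chain sets the isotype (IgM, IgD, IgG or IgA). Light chains are of the kappa or the lambda type, and the joining chain links IgM or IgA units into polymers. B cells carry antibody in their membrane as the antigen receptor and plasma cells secrete it, whereas follicular dendritic cells hold antibody on their surface by Fc and complement receptors without transcribing its genes.

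Both fractions were total RNA of freshly isolated mouse spleen cells, and the labels tell the groups apart by whether follicular dendritic cells had been enriched or depleted. Set A held FDC-D samples 1 and 2 and FDC-E samples 1, 2 and 3, set B held FDC-D 1 and 2 and FDC-E 2 and 3, and set C held the 5 samples of set A, 14 arrays in all. The labels used here do not state the strain, age, treatment and number of the mice and the way the cells were separated. They also do not state whether the samples of a fraction came from different animals, and the spread on which all p-values rest may therefore be technical.

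The fractions were checked against marker lists. Of 9 tested genes of the FDC list 7 were higher in FDC-E, 1 was lower and 1 did not pass, and Cxcl13, the attractant of B cells to the follicle, read 26.0 and 38.9 in FDC-D and 1179, 1335 and 1560 in FDC-E. The 7 tested endothelium genes and the 8 tested macrophage genes were all higher in FDC-E. Of 12 tested B cell genes 11 were lower and Pax5 did not pass, and all 7 tested T cell genes were lower. The marker genes were read on sets A and B. Over all tested probe sets of these sets 17.9% and 17% were lower, and 23.1% and 19.4% were higher. Vcam1 is on both the FDC and the macrophage list. Cr2, the lower gene of the FDC list, is also on the B cell list. The summed intensity of the B cell genes on set A was 26642 to 26812 on the FDC-D arrays and 7658 to 9275 on the FDC-E arrays. That of the plasma cell genes was 4948 to 5099 against 3494 to 4159.6. A gene with a probe set missing on FDC-E2 was left out of the sum of that array alone, so the sums need not cover the same genes. Of 8 tested plasma cell genes 3 were lower, 1 was higher and 4 did not pass, with a median log2 fold change of -0.16. Irf4 read 2760 and 2587 in FDC-D and 1165, 1582 and 1199 in FDC-E. Of the other tested plasma cell genes of set A, Prdm1, which passed the filter through its enriched arrays alone, was higher, and Xbp1, Tnfrsf17 and Creld2 did not pass. No defining B cell gene was at 0 in FDC-E, where Ms4a1, the surface protein CD20, still read 1359 to 1670. Fewer cells of a type and less RNA per cell cannot be told apart in such samples.

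FDC-E2 stood apart from the other enriched arrays in the immunoglobulin probe sets. On set A it was the highest of the 3 enriched arrays in 45 of 53 tested members, or 84.9%, against 37.4% of all 7546 tested probe sets that had no missing value. The median difference of the members from the mean of the FDC-D arrays, on the log2 scale, was -0.81 on FDC-E1, -0.35 on FDC-E2 and -0.96 on FDC-E3. The same array was the highest enriched one in 8 of 9 B cell genes, in 4 of 5 plasma cell genes and in 1 of 6 T cell genes of set A. It was also the highest in 4 of 6 endothelium genes, 4 of 8 macrophage genes and 2 of 8 FDC genes. The part of the B cell genes in the immunoglobulin values was not tested. Below, the count of lower members over all of set A is also given without this array.

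**Figure D1:**
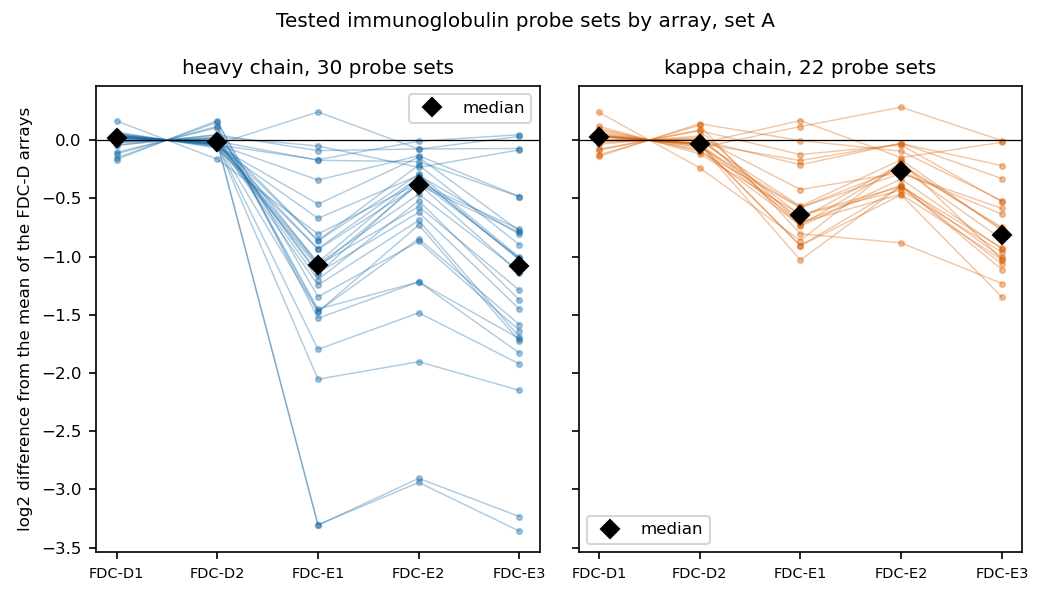
Difference of each tested heavy chain (left) and kappa chain (right) probe set of set A from the mean of the FDC-D arrays, on the log2 scale, for each array; thin lines join the values of 1 probe set, the arrays of a group have no order, and diamonds are medians. FDC-E2 has medians of -0.38 (heavy) and -0.26 (kappa), nearer to FDC-D than FDC-E1 (-1.07 and -0.64) and FDC-E3 (-1.08 and -0.81).

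Most immunoglobulin probe sets were lower in the fraction enriched for follicular dendritic cells. Of the 65 members on set A, 53 passed the filter on dim probe sets, and of these 41 were lower in FDC-E, none was higher and 12 did not pass limma's test at an adjusted p under 0.05. Over all 7895 tested probe sets of set A, 17.9% were lower and 23.1% were higher. None of the members was higher at an unadjusted p under 0.05 either. In 46 of the 53 every FDC-E array lay below every FDC-D array, against 28.6% of all tested probe sets. Of 27 tested members with the suffix _f_at, given to probe sets shared by a gene family, 24 were lower. Of 21 with the plain suffix _at, 13 were lower. Family probe sets can read the same near-identical copies, so the 53 are not separate readings. The members' median log2 fold change was -0.69, a 1.61-fold lower level, with a range of -3.20 to 0.13, beside a median of 0.02 over all tested probe sets. Fold changes are on the scale of log2(intensity + 88.5), which understates the change of dim probe sets.

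With 1 depleted array left out, the FDC-D group is a lone array that is assumed to vary like the FDC-E arrays. The count was then 19 of 52 without FDC-D1 and 27 of 52 without FDC-D2, and the share lower among all tested probe sets also fell, to 9.86% and 9.62%. The fold changes moved little, to a median of -0.68 and -0.74, with 49 and 50 of the 52 negative. The 21 calls lost without FDC-D1 and the 14 lost without FDC-D2 kept their direction, and their log2 fold changes moved by at most 0.16 and 0.086. The same limit holds for each call given below as lost without a depleted array. Without FDC-E2 the count was 44 of 53, and without FDC-E1 or FDC-E3 it was 38 or 35. The calls of 17 of the 41 held with each array left out in turn. Of the 53, 3 had fewer than 2 enriched arrays above the filter and were tested through their depleted arrays, which were Ighv14-2 92740_at, Ighv14-2 98974_at and Igk 101332_at. The first had no enriched array above it and was not tested without FDC-D1 or FDC-D2.

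By chain, 25 of 30 tested heavy chain probe sets of set A were lower in FDC-E, with a median log2 fold change of -0.85, and 15 of 22 kappa chain probe sets, with a median of -0.56. Over all tested probe sets of set A the share lower was 17.9%. The heavy chain count was 13 without FDC-D1 and 17 without FDC-D2, and the kappa count was 5 and 10. Within the heavy chain, 17 of 22 probe sets named for a constant gene and 8 of 8 named for a variable segment were lower. Lambda had 1 tested probe set of its own, on set C, which was lower. By gene, 27 of the 29 genes had a tested probe set, and for 21 of them the brightest was lower. Of 10 genes with more than 1 tested probe set, the calls differed within 5, which were Ighm, Ighg3, Igha, Igkv14-111 and Igkv9-120.

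**Figure D2:**
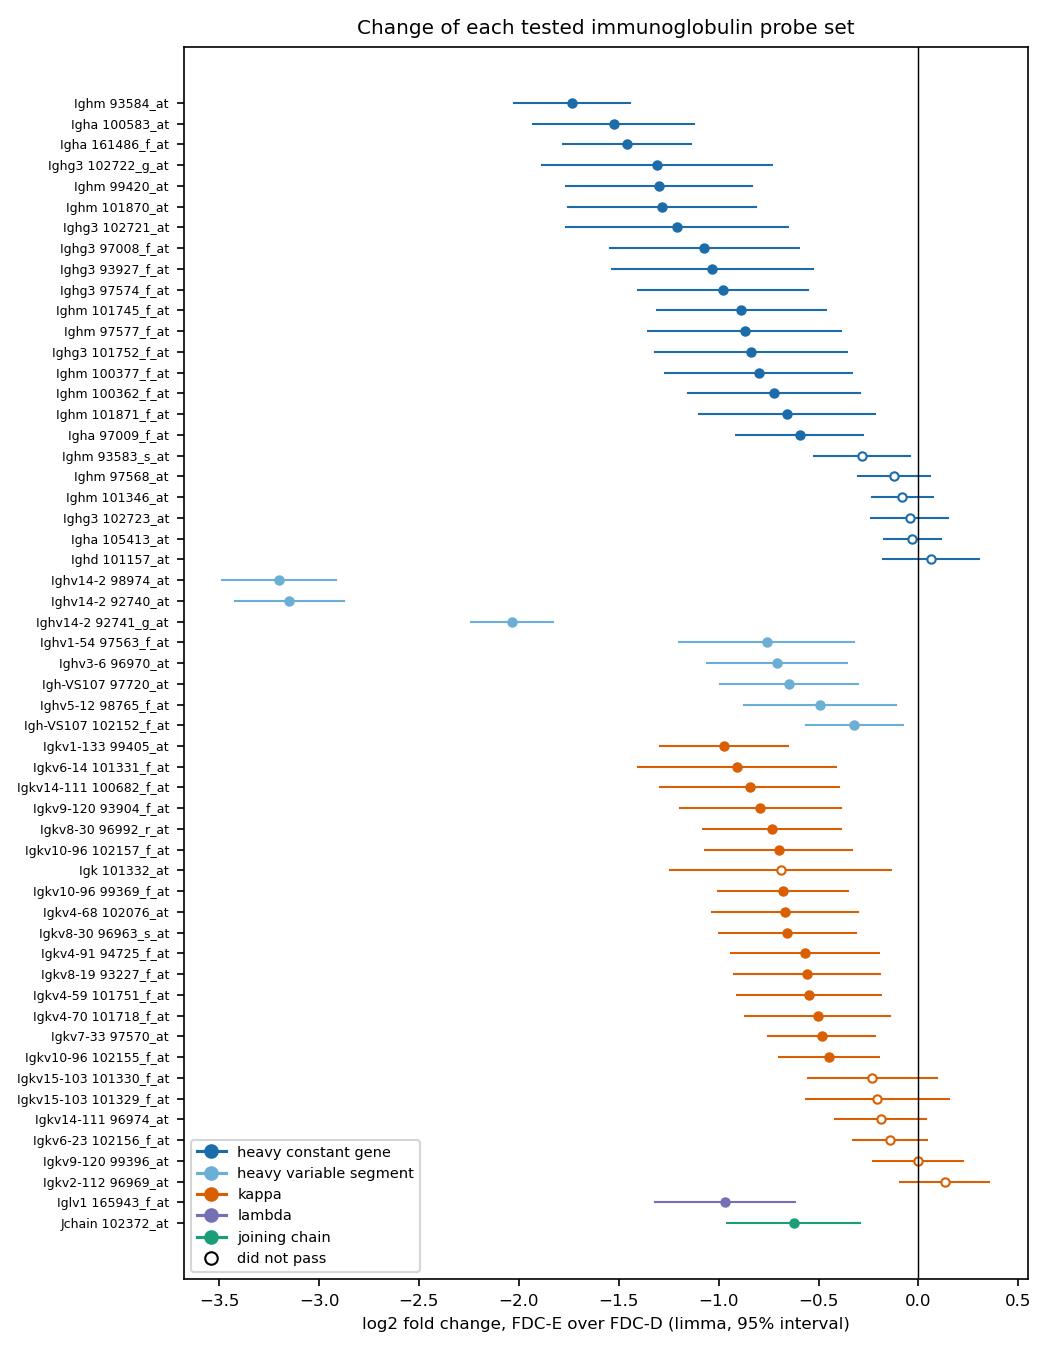
Log2 fold change of FDC-E over FDC-D with its 95% interval (limma) for each of the 55 tested members, sorted by class; filled points passed at an adjusted p under 0.05 and open points did not. The 3 Ighv14-2 probe sets lie between -3.20 and -2.04, and no filled point lies to the right of 0.

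Ighm encodes the constant region of the mu heavy chain of IgM, the first isotype a B cell makes. It was named by 16 probe sets, of which 11 were tested, 8 were lower and 3 did not pass. The probe set 93583_s_at read 14024 and 13813 on the FDC-D arrays and 12328, 12230 and 9907 on the FDC-E arrays. All 3 enriched arrays lay below both depleted arrays, but the log2 fold change of -0.28 did not pass (limma adjusted p = 0.062). It passed after quantile normalization (adjusted p = 0.023), after scaling to the array medians (0.0036) and without FDC-E2 (0.043). The probe set 93584_at read 7126 and 6786.5 in FDC-D and 1938, 2431 and 1769 in FDC-E, a 3.33-fold lower level (adjusted p = 1.4e-05). The groups lay far apart, and this probe set was lower with each array left out in turn.

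Whether a probe set named for Ighm reads the constant region or a variable region joined to it was not stated in the sources used, and the same holds for Ighg3 and Igha. The probe set 101870_at of Ighm read 4099 and 5083 in FDC-D against 1743, 2457 and 1409 in FDC-E, and 99420_at read 3737 and 4344 against 1398, 2202 and 1284. These were 2.44-fold and 2.46-fold lower. The 5 other Ighm probe sets that were lower end in _f_at, the suffix of probe sets shared by a gene family, and near-identical copies cannot be told apart by them. Among these, 100362_f_at read 4315 and 4216.5 in FDC-D against 2300.4, 3462 and 2076 in FDC-E, with a log2 fold change of -0.72. For 97577_f_at the values were 2863.5 and 2663 against 1248, 2105 and 1206, with -0.87. In both, FDC-E2 lay nearest to the depleted arrays, and the call was lost without FDC-D1 (adjusted p = 0.077 and 0.066), the first also without FDC-D2 (0.067). The remaining 3 read 2303 and 2346 against 1239, 1991 and 1205 (101871_f_at), 1686 and 1636 against 756, 1312 and 771 (100377_f_at), and 1062 and 1136 against 479, 771 and 454 (101745_f_at). The first of these 3 was lost without FDC-D1, FDC-D2 or FDC-E3 (adjusted p = 0.096 and 0.11 for the depleted ones), the second without either FDC-D array (0.071 and 0.061), and the third held. The dim probe sets 97568_at (239 and 251 against 233, 195 and 226) and 101346_at (214 and 233 against 204, 207 and 208) did not pass. The 5 untested Ighm probe sets read between 17.3 and 151 on every array.

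IgD is carried beside IgM by mature B cells that have not met antigen, and its delta constant region, Ighd, had 1 probe set. It read 3019 and 2871 in FDC-D and 3495.5, 2784 and 3011 in FDC-E. The groups overlapped, the log2 fold change was 0.06 with a 95% interval of -0.18 to 0.30, and limma's adjusted p was 0.67. The sign turned to -0.07 after scaling to the array medians and to -0.02 without FDC-E1.

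IgG3 is a mouse IgG isotype made largely against polysaccharides. Of its constant gene, Ighg3, all 7 probe sets were tested, 6 were lower and 1 did not pass. The probe set 102721_at read 4924 and 4809 in FDC-D and 2001, 2982 and 1444 in FDC-E, a 2.31-fold lower level (adjusted p = 0.0043). The probe set 102722_g_at read 4487 and 4294 against 1522, 2615 and 1265, 2.48-fold lower. No enriched array reached a depleted one in either probe set. The 4 family probe sets read 2718 and 2744.5 against 1180.3, 2120.1 and 1308.5 (101752_f_at), 2099.8 and 2105.5 against 866, 1438 and 757 (93927_f_at), 2057 and 1983 against 912, 1331 and 774 (97574_f_at), and 1694.5 and 1739 against 730.3, 1085 and 571 (97008_f_at). Their log2 fold changes ran from -1.07 to -0.84, and the call of 101752_f_at was lost without FDC-D1 or FDC-D2 (adjusted p = 0.060 and 0.063). The dim probe set 102723_at read 243 and 224 against 198, 231 and 244, which overlap. Ighg1, Ighg2b, Ighg2c and Ighe were not analysed here.

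IgA is the isotype of mucosal antibody, and its constant gene, Igha, had 3 probe sets on set A, which were all lower. The probe set 100583_at read 3758 and 4762 in FDC-D and 1407, 1769 and 1127 in FDC-E, 2.88-fold lower (adjusted p = 2.0e-04). The family probe set 161486_f_at read 695 and 835 against 222, 277 and 172, 2.75-fold lower, and 97009_f_at read 396 and 358 against 204, 289 and 177, 1.51-fold lower. Every enriched array lay below every depleted array in all 3. The call of 97009_f_at was lost without FDC-D1 (adjusted p = 0.071). The 1 Igha probe set of set B, 105413_at, read 447 and 413 in FDC-D and 416 and 422 in FDC-E, which overlap, and did not pass (log2 fold change -0.03, adjusted p = 0.75). On set B 17% of 7786 tested probe sets were lower and 19.4% were higher.

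The joining chain, Jchain, is made in cells that secrete IgM or IgA. Its probe set on set A read 3843 and 4158 in FDC-D and 2591, 3088 and 2103 in FDC-E. All enriched arrays lay below both depleted arrays, by 1.54-fold on average (log2 fold change -0.62, 95% interval -0.96 to -0.29, adjusted p = 0.0090). Without FDC-D2 it did not pass (log2 fold change -0.57, adjusted p = 0.070).

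**Figure D3:**
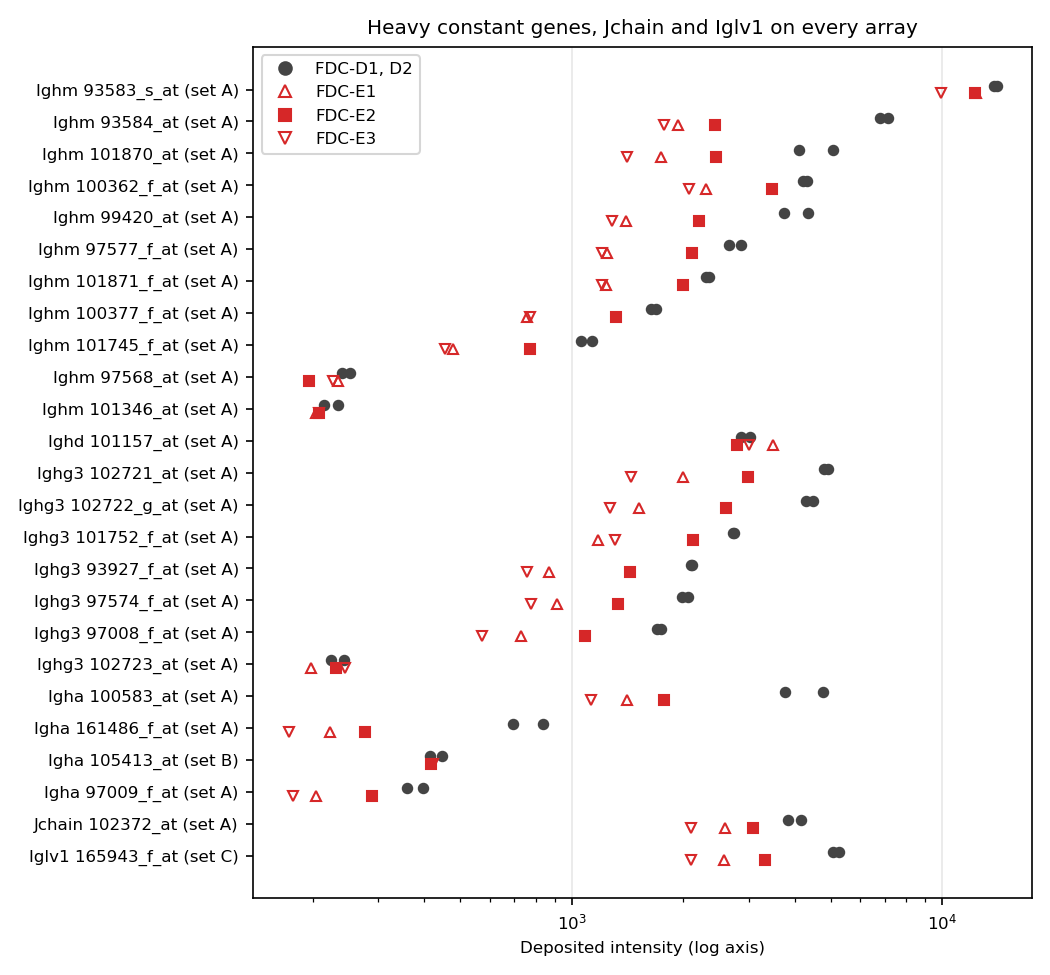
Deposited intensity (log axis) of each tested probe set named for a heavy constant gene, Jchain or Iglv1 on every array of its set; filled circles are the FDC-D arrays and red symbols the FDC-E arrays. Ighd alone among the isotypes of set A has no probe set with separated groups, and its 3 enriched arrays read 2784 to 3496.

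The isotypes were set against Ighm by the log2 difference between the probe set of each gene that ranked highest in level and 93583_s_at on the same array, with an exact two-sided permutation test over the arrays that cannot go below 0.1. For Igha this difference was 1.24 lower in FDC-E than in FDC-D (-1.70 ± 0.25, SD, n = 2, in FDC-D and -2.94 ± 0.18, SD, n = 3, in FDC-E, exact permutation p = 0.1). For Ighg3 it was 0.93 lower (exact p = 0.2) and for Ighd 0.35 higher (exact p = 0.2), and the adjusted p over the 3 comparisons was 0.2 for each. The choice of the Ighm probe set turned the sign for Igha and Ighg3: against 93584_at, chosen after its values were seen, Igha was 0.21 higher (exact p = 0.3) and Ighg3 0.52 higher (exact p = 0.2), while Ighd was 1.80 higher (exact p = 0.1). No order of the isotypes by change was thus shown.

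Of the heavy chain variable segments, Ighv14-2 was lower by more than any other member. Its probe set 98974_at read 2541 and 2489 in FDC-D and 175, 251 and 165 in FDC-E, 9.19-fold lower (limma adjusted p = 4.7e-07). The probe set 92740_at read 2040 and 1957 against 122, 190 and 133, 8.86-fold lower, and 92741_g_at read 1457 and 1374 against 274, 313 and 250.4, 4.10-fold lower. As said above, 98974_at and 92740_at passed the filter through their depleted arrays, the side on which they are high. Their enriched readings lay near the added 88.5, so the sizes of these 2 falls are not set by the values. The calls of 98974_at and 92741_g_at held with each array left out in turn, and that of 92740_at with each enriched array left out. A probe set that names Ighv14-2 together with Ighg3, Igha and Ighm, 99421_at, read 1444 and 1467 against 1386, 1227.5 and 1330 and did not pass (adjusted p = 0.21). Over the 5 other tested heavy variable probe sets, which were all lower, the log2 fold changes ran from -0.76 to -0.32. Of these, Ighv1-54 read 5223 and 4952 in FDC-D against 2623, 4055 and 2448 in FDC-E, and Ighv5-12 read 2423 and 2244 against 1564, 2098 and 1320.2. Both were read by family probe sets, 97563_f_at and 98765_f_at, which cannot tell near-identical copies apart. In both, FDC-E2 lay close to the depleted arrays, and neither call held without FDC-D1 (adjusted p = 0.074 and 0.20) or FDC-D2 (0.053 and 0.12), and that of Ighv5-12 also not without FDC-E1 or FDC-E3.

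**Figure D4:**
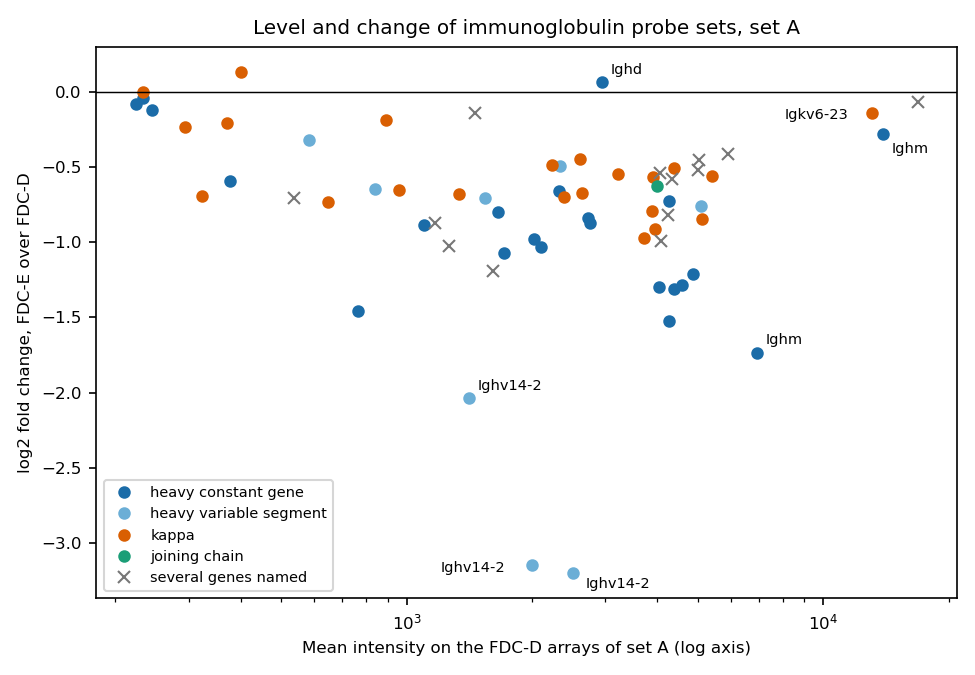
Mean intensity on the FDC-D arrays of set A (log axis) against the log2 fold change of FDC-E over FDC-D for each tested immunoglobulin probe set, coloured by class; crosses name several genes. The Ighv14-2 probe sets lie lowest, at -3.20, -3.15 and -2.04, and the 3 points at the far right lie between -0.28 and -0.07.

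Of 21 tested kappa variable probe sets 15 were lower and 6 did not pass. The largest fall was that of Igkv1-133, which read 3375 and 4042 in FDC-D and 2076, 1962.5 and 1522 in FDC-E, 1.96-fold lower (adjusted p = 6.9e-04). Igkv6-14 read 4045 and 3856 against 2064, 2826 and 1498 in 101331_f_at, 1.88-fold lower. Igkv14-111 read 5252 and 4963 against 2455, 3865 and 2315 in 100682_f_at, 1.80-fold lower. The groups did not overlap in any of the 3, but the calls of Igkv6-14 and Igkv14-111 were lost without FDC-D1 (adjusted p = 0.057 and 0.055), with log2 fold changes of -0.87 and -0.81 there against -0.91 and -0.85 with all arrays. Igkv9-120 read 3988 and 3786 against 2032, 2920.5 and 1812 in 93904_f_at, 1.73-fold lower. Its dim probe set 99396_at read 240 and 227 against 273, 201 and 229 and did not pass.

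The kappa segment with the highest readings, Igkv6-23, read 13384 and 12868 in FDC-D and 11606, 12850.0 and 11256 in FDC-E. Its probe set, 102156_f_at, and that of Igkv8-19, 93227_f_at, are family probe sets, which cannot tell near-identical copies apart. The enriched arrays lay below the depleted ones, by as little as FDC-E2 against FDC-D2, and the difference of -0.14 on the log2 scale did not pass (adjusted p = 0.20), though it passed after scaling to the array medians (-0.28, adjusted p = 0.012). Igkv8-19 read 5608 and 5191 against 3582, 4549 and 2952, 1.47-fold lower, a call lost without FDC-D1 or FDC-D2 (adjusted p = 0.13 and 0.071). Igkv2-112 and Ighd were the 2 tested members of set A with a positive log2 fold change, 0.13 for Igkv2-112, and neither passed. The probe set named for the kappa locus as a whole, Igk 101332_at, read 389 and 255 against 134, 268 and 111, which overlap, and did not pass (adjusted p = 0.0505). It passed without FDC-E2 (adjusted p = 0.0022), without FDC-D2 (0.046) and under both other scalings (0.015 and 0.010).

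Lambda light chains are the minor type in the mouse. Iglv1, their first variable segment, read 5259 and 5080 in FDC-D and 2568, 3323 and 2098.5 in FDC-E on set C, 1.96-fold lower (adjusted p = 0.0027). Its probe set, 165943_f_at, is a family probe set. The enriched arrays lay well below the depleted ones, and the call held with each array left out in turn. On set C 8.73% of 7358 tested probe sets were lower and 9.5% were higher. The constant gene Iglc1 had 1 probe set of its own, on set A, which read 148 to 159 on every array and fell below the filter.

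The 13 probe sets of set A that name several genes were all tested, and 10 were lower, none was higher and 3 did not pass. Over all tested probe sets of set A, 17.9% were lower and 23.1% were higher. In all 13 every enriched array lay below every depleted one, against 28.6% of all tested probe sets. The log2 fold changes of the 13 ran from -1.19 to -0.07 with a median of -0.58. Several of the 13 name the same genes, so they are not separate readings. The probe set 93638_s_at, named for the lambda genes Iglc1 and Iglv1, read 1751 and 1474 in FDC-D and 686, 935 and 425 in FDC-E, 2.29-fold lower. The probe set 93086_at, named for 5 kappa genes that include the constant gene Igkc, read 16782 and 16981 against 16186, 16659 and 15530, a log2 fold change of -0.07, which did not pass (adjusted p = 0.48). The reading of 16981 was the highest intensity on set A, and whether such readings were near the top of the scanner's range was not stated in the sources used. The several-gene probe set of set B, which names Igha, did not pass (log2 fold change -0.04).

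The members were also counted by their reading in FDC-D, which is itself a term of the fold change and does not rank amounts of RNA between genes. Of 15 members of set A with a mean under 1000 in FDC-D, 6 were lower, with a median log2 fold change of -0.23. Of the 13 between 1000 and 2500 all were lower, with a median of -0.80, and of the 19 between 2500 and 5000 all but Ighd were lower, with a median of -0.84. Of the 6 over 5000, 4 were lower, and Ighm 93583_s_at and Igkv6-23 did not pass. The added 88.5 also draws the changes of the dimmest band toward 0.

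Other genes of B cell and antibody biology were taken from lists, whose genes came from all 3 array sets. Over all tested probe sets the share lower was 17.9%, 17% and 8.73% on sets A, B and C, and the share higher was 23.1%, 19.4% and 9.5%. Of 14 tested partners of the B cell receptor 11 were lower, 1 was higher and 2 did not pass, with a median log2 fold change of -1.12. Cd79a and Cd79b, which carry the signal of membrane antibody into the cell, fell 3.54-fold and 3.39-fold, Blk, a kinase of the same pathway, fell 3.62-fold, and Cd22, an inhibitory co-receptor, fell 3.45-fold. Cd79a read 5313 and 5326 in FDC-D and 1384, 1884 and 1138 in FDC-E, so that FDC-E2 was again the highest enriched array, as it was in all 9 of these genes measured on set A with a value on each array. Cd81, a membrane protein of the co-receptor complex that many cell types carry, was the 1 that rose.

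Transcription factors of immunoglobulin genes were mostly lower, 9 of 15 tested, with 1 higher, Tcf4, and 5 that did not pass. Bach2, a repressor that holds back plasma cell differentiation, fell 4.88-fold on set C, and Ikzf1, the lymphoid factor Ikaros, fell 4.62-fold on set B. Pou2f2 and Pou2af1, the factor Oct-2 and its co-activator, which act on immunoglobulin promoters, fell 2.67-fold and 2.33-fold. Irf4, needed for plasma cells, fell 1.98-fold, from 2760 and 2587 in FDC-D to 1165, 1582 and 1199 in FDC-E.

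Of 23 tested genes of antibody secretion and plasma cells 7 were lower, 3 were higher and 13 did not pass, with a median log2 fold change of -0.11, and the higher ones were no larger a share than over all probe sets of sets A and B. Cd28, a co-stimulatory receptor that T cells also carry, read 555 and 540.3 in FDC-D and 63.4, 73.4 and 55.8 in FDC-E. It was lower (log2 fold change -2.06, adjusted p = 3.3e-07), but its enriched readings lay under the pseudocount, so the size of the fall is not set by these values (-2.73 with the smaller pseudocount). Tnfrsf13b, a receptor for B cell survival factors, fell 2.39-fold. Mzb1, a chaperone of antibody assembly, fell 1.92-fold on set B. Prdm1, the factor Blimp-1 that drives antibody secretion and acts in other cell types too, rose 1.53-fold, from 125 and 131 to 214, 264 and 251. Xbp1, the factor of the secretory apparatus, read 711 and 749 in FDC-D and 755, 1004 and 894 in FDC-E and did not pass (adjusted p = 0.12), though it passed without FDC-E1 (adjusted p = 0.0083). Sdc1 had no tested probe set.

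Of 12 tested receptors that bind immunoglobulin 4 were lower, 3 were higher and 5 did not pass, with a median log2 fold change of 0.0076, and the share higher was near that over all probe sets of set A. Fcmr, the receptor for IgM on B cells, fell 5.38-fold on set B, Fcrla fell 3.72-fold, and Fcer2a, the low-affinity receptor for IgE, fell 2.79-fold. Fcgrt, the neonatal Fc receptor that recycles IgG in endothelium and macrophages, rose 1.67-fold. Fcgr2b, the inhibitory IgG receptor by which follicular dendritic cells hold immune complexes, read 368 and 373 in FDC-D and 310.0, 394 and 331 in FDC-E, which overlap, and did not pass. Pigr, which carries polymeric IgA across epithelium, did not pass either, and its log2 fold change of 0.10 turned to -0.01 after scaling to the array medians.

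The genes that rearrange or edit antibody genes had 2 lists. Of 7 tested genes of the surrogate light chain and V(D)J recombination 2 were lower and 5 did not pass. Vpreb3, a partner of nascent chains in precursor B cells, fell 1.63-fold. Xrcc6, a DNA repair gene, was lower by 1.14-fold, a call lost without FDC-D1 (adjusted p = 0.22), FDC-D2 (0.31), FDC-E2 (0.054) or FDC-E3 (0.13). Of 5 tested genes of class switching and hypermutation 1 was lower, Rnf8, by 1.25-fold, a call lost without FDC-D1 or FDC-D2 (adjusted p = 0.060 and 0.11). The median log2 fold changes of these lists were -0.09 and -0.10. Over all tested probe sets the share lower was 17.9% on set A and 8.73% on set C, and counts this small do not set either list apart.

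**Figure D5:**
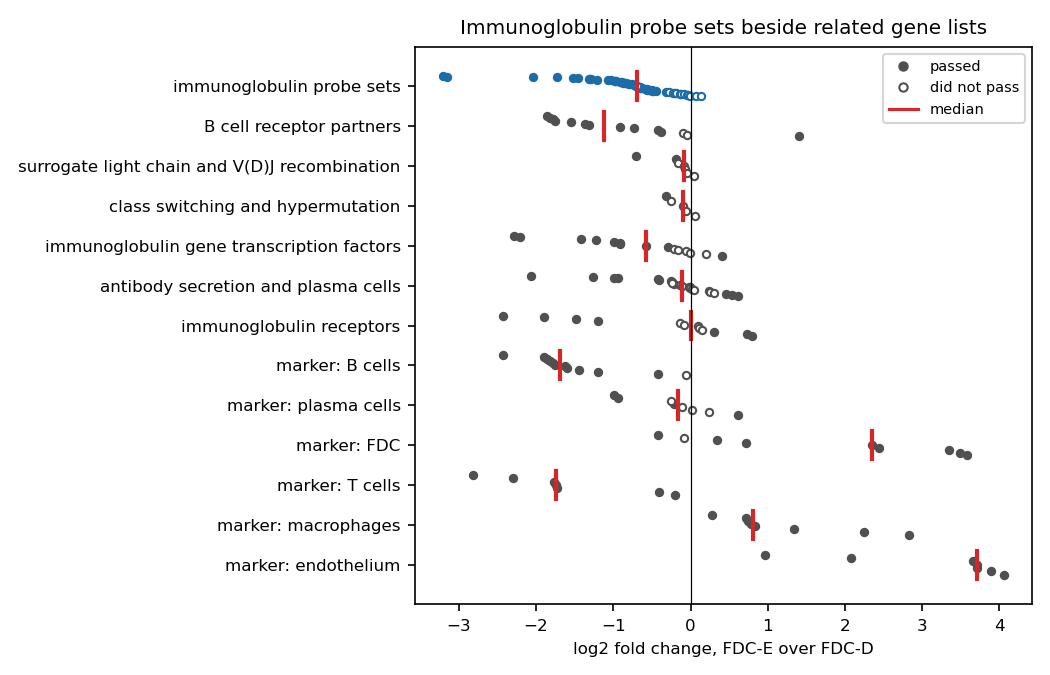
Log2 fold change of FDC-E over FDC-D for the immunoglobulin probe sets (blue) and for 1 probe set per gene of each list; filled points passed at an adjusted p under 0.05, open points did not, and red bars are medians. The immunoglobulin median of -0.69 lies between those of the B cell genes (-1.69) and of the plasma cell genes (-0.16).

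The octamer, the site of Oct-1 and Oct-2 in immunoglobulin promoters, was looked for in the promoter sequences of RefSeq on GRCm38.p6 because Pou2f2 and Pou2af1 fell. The motif ATGCAAAT, or ATTTGCAT on the other strand, lay in the 250 bases before the start in 526 of 32851 promoter sequences, or 1.6%. Of the 29 member genes only Jchain has an entry, and its 250 bases upstream (chr5:88527898-88528147, minus strand) do not hold these letters. Vpreb3, at 85 bases (chr10:75948215-75948299, plus strand), holds the motif beginning 45 bases before the start, and the motif is in capitals. Among the genes of the 6 lists with an entry, Blnk, 1 of 12 B cell receptor partners, and Vpreb3, 1 of 11 genes of the surrogate light chain and V(D)J recombination, hold it, and none of the 7, 13, 23 and 16 genes of the other lists does. Vpreb3 is shown since it is among the named genes of its list.
Jchain: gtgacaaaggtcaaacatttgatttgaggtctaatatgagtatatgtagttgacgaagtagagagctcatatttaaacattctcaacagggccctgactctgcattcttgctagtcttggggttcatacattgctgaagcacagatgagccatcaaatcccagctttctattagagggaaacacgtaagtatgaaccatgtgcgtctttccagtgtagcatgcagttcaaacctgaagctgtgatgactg
Vpreb3: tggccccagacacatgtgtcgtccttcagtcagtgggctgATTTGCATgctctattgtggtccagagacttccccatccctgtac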

How the data were processed

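Total RNA of mouse spleen fractions was measured on 14 arrays of 3 array sets. Linear intensities, 1 table for each set, were deposited by the authors, and their summarisation, background correction and scaling are not described in the labels or file headers. Enriched sample 2 on set A had 893 probe sets without a value, none of them a member. Probe sets were named through the platform annotation with symbols updated by Entrez identifier.

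Each set was fitted alone with limma 3.58.1 in R 4.3.3 (lmFit, eBayes with trended prior variance, two-sided) on log2(intensity + the 20th percentile of positive values: 88.5 on A, 81.2 on B, 53.1 on C) of the deposited intensities. The deposited scale was kept because trimmed means differed by at most 1.08-fold. Tested were probe sets that exceeded the 40th percentile of an array for 2 or more arrays, leaving out 66 array controls per set. P-values were Benjamini-Hochberg adjusted within the set over all tested probe sets and passed under 0.05. A gene on a list stands by its brightest tested probe set. The number of arrays limits the precision.

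The members and lists were chosen with earlier results of these data known. Named were all constant-gene probe sets and Jchain, the 4 largest passing falls and 2 brightest of each class of variable segments, and up to 3 passing genes per list plus a preset few. Members outside this rule, such as Igkv2-112, Cd81 and Tcf4, were named after their values were seen. Alternatives were quantile and median scaling, no filter, a smaller pseudocount, no variance trend, a replicate block and leaving out each array. The scripts were tested on simulated data.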

Additional observations from a re-analysis of the deposited data

How the results depend on the processing

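Of the 53 tested members of set A, 41 were lower in FDC-E, and leaving out 1 array gave 19 to 44. The count was 43 without a filter, 44 after quantile normalization, 46 after median scaling, 41 with the smaller pseudocount or without a variance trend, and 40 when the replicate number was blocked. None was higher in any of these fits. Heavy chain counts ran from 13 to 26 and kappa counts from 5 to 17 with 1 array left out. Over all tested probe sets of set A, quantile normalization moved the share lower to 25.9% and higher to 18.3%, with a median log2 fold change of -0.07, and median scaling moved them to 27.4% and 17.4%, with -0.09. Jchain kept its direction throughout, from -0.75 to -0.49 with 1 array left out, and did not pass without FDC-D2 (-0.57, adjusted p = 0.070). Igha against Ighm ran from -1.42 to -1.07 with 1 array left out, and turned with the Ighm probe set 93584_at (0.21), as did Ighg3 (0.52). The sign also turned in fits that did not pass, for Igha 105413_at (-0.079 to 0.016 with 1 array left out), Ighd (-0.066 after median scaling, -0.023 to 0.136 with 1 array left out), Ighg3 102723_at (-0.089 to 0.018), Pigr (-0.010 after median scaling) and Igkv9-120 99396_at (0.0082 with the block, -0.085 to 0.074 with 1 array left out). The cause was not tested. Same-numbered samples did not deviate together (r = 0.03 and 0.06 on set A, -0.31 and -0.15 on set C), so the block shows only how a shared number moves the calls, and set B shares too few numbers for it. The B cell list kept 11 lower genes without FDC-E2, and the surrogate light chain list had 1 in place of 2. The several-gene probe sets were not refitted.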
